A study of Rattus norvegicus with 2 samples.

Results

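The most abundant circular RNAs common to the lungs of Sham and LPS rats were described here. They are the 323 circRNAs, of 4734 in the deposited table, that were above the authors' fill-in of 0.001 in both libraries and had at least 50 back-splice junction reads over both. Lung tissue came from SD rats of about 300 g, 12 of which were assigned to the 2 groups. Sham rats were given PBS. LPS rats were given lipopolysaccharide at 2 mg/kg by spray into the trachea, and lungs were taken at 24 h. Each group has 1 library, and the pooling of rats is not stated in the sources used here. There is therefore no replicate error in these data.

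Circular RNAs form when the end of an exon is spliced back to the start of the same or an earlier exon of a pre-mRNA. The closed molecule has no free end, so exonucleases such as RNase R spare it, and it can build up in cells that make few copies of it. Its level follows the transcription and splicing of the host gene, the efficiency of back-splicing and its own slow decay, so it is not a measure of the host mRNA. Lipopolysaccharide, a component of the outer membrane of Gram-negative bacteria, is sensed by macrophages and epithelium of the lung and draws neutrophils into the air spaces, and it is a common model of acute lung injury.

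The labels and the methods of the study give different library protocols, RNase R digestion after removal of ribosomal RNA in the former and a SmartPCR cDNA kit with RsaI in the latter. The members were chosen by the measured values themselves. Their levels and their LPS to Sham ratios are therefore a description and support no comparison. The deposited values carry the heading TPM, but they sum to 1000000 in each column and move in equal steps whatever the span, so they were taken as counts per 1000000 junction reads (CPM). The step was 26.2 CPM per read for Sham and 19.0 CPM per read for LPS, and dividing by it gave whole numbers to within 0.01 reads for 100% of the listed values. The depths were 38112 Sham and 52505 LPS junction reads. Fold changes were taken on the log2 scale of LPS over Sham CPM after 0.5 reads were added to each library, and a circRNA counted as different at 2-fold or more. Intervals in parentheses are 95% Wilson intervals of the share of junction reads, written in CPM. Only the error of counting is in them. The reads passed PCR and carry no molecular identifiers, so they do not count separate molecules. Positions are those of the deposited table, with the rn6 build taken from the submitters' processing notes, and span is the genomic distance between the junction ends, introns included.

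Few circRNAs carried most of the junction reads. The 323 members are 6.82% of the circRNAs listed, and they held 19782 Sham reads, or 51.9% (95% interval 51.4 to 52.4), and 31218 LPS reads, or 59.5% (59.0 to 59.9). The other 1434 circRNAs with reads in both libraries held 31.4% of the Sham reads and 23.9% of the LPS reads. The median member had 33 Sham reads, or 866 CPM, and 55 LPS reads, or 1048 CPM. Another 9 circRNAs had at least 50 reads but were at the fill-in in the other library, 6 of them with LPS reads and 3 with Sham reads.

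The read minimum lets in a circRNA through either library. Among the members, 75 had at least 50 reads in each library, 116 reached that number in the LPS library alone, 17 in the Sham library alone and 115 only by the sum of both. Of the 116 that reached it through LPS alone, 70 were at least 2-fold higher in LPS and 0 lower, and of the 17 through Sham alone, 0 were higher and 14 lower. The choice of members thus bears on these counts, on the members' shares of the reads and on the numbers of higher and lower members. Exactly at the minimum stood a circRNA at chr4:168514863-168517342, whose host names are small RNA families only, with 26 Sham reads, or 682 CPM, and 24 LPS reads, or 457 CPM. Just outside, 8 circRNAs had 49 reads. Their hosts were Adck4, Agps, Cnot8, Elf2, Pxdn, Sdk1, Specc1l and a set of small RNA families. The LPS reads of these 8 went from 13 for Specc1l, beside 36 Sham reads, to 36 for Pxdn, beside 13 Sham reads.

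Gigyf2 led both libraries by a wide margin. This gene encodes a partner of a cap-binding repressor of translation. Its junction at chr9:94463647-94481167 had 2343 reads and 61477 CPM (59109 to 63933) in the Sham library. In the LPS library it had 1432 reads and 27274 CPM (25915 to 28702), a log2 fold change of -1.17. With the ratios of all shared circRNAs centered on 0, a scale described below, it was -0.71 and short of 2-fold. It alone held 6.15% of the Sham reads and 2.73% of the LPS reads. Without it the other 322 members held 45.8% and 56.7%. Behind it the levels declined slowly: the 10 members of highest mean CPM held 14.7% of the Sham reads and 12.9% of the LPS reads, the first 50 held 28.4% and 29.2%, and the first 100 held 35.7% and 38.8%.

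The lists of the highest circRNAs were largely shared between the libraries, though ranks within them could move. Of the 20 circRNAs with the highest CPM in each library, 15 were common to both lists, and all 20 of either list were members. Of the 100 highest in each, 60 were common, and 97 of each list were members. Over the 323 members the Spearman correlation of Sham and LPS CPM was 0.36. It is a correlation across circRNAs, which are not replicates, and a minimum on the sum of reads lowers it by leaving out circRNAs low in both libraries. Over all 1757 circRNAs with reads in both libraries it was 0.61.

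The other circRNAs of highest mean CPM are given by host gene. The corepressor Cdyl, which has a chromodomain, was at rank 2 in the Sham library and rank 5 in the LPS library. Its junction at chr17:29730437-29731094 had 522 Sham reads, or 13696 CPM (12578 to 14913), and 615 LPS reads, or 11713 CPM (10828 to 12670). The DNA-binding protein Ssbp2, at rank 3 in both (chr2:20507150-20531444), had 11466 CPM (10446 to 12585) and 13408 CPM (12459 to 14428). In both of these the difference between the libraries was well under 2-fold. The transcription factor Gtf2i, at chr12:25442325-25447480, had 432 Sham and 584 LPS reads, and its values of 11335 and 11123 CPM left a log2 fold change of -0.03. Nfix, a factor of the nuclear factor I family, was higher in LPS short of 2-fold, with a Sham value of 6533 CPM (5773 to 7393) and an LPS value of 12304 CPM (11396 to 13283) at chr19:25886356-25886887. The histone chaperone partner Ubn2 (chr4:66172555-66180964) had 308 Sham reads, or 8081 CPM, and 357 LPS reads, or 6799 CPM. The class IIa deacetylase Hdac4 (chr9:99266783-99267021) differed little, with 5694 CPM from 217 Sham reads and 5809 CPM from 305 LPS reads.

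Med13l, also among the 20 highest, encodes a subunit of the kinase module of Mediator, the complex that links transcription factors to RNA polymerase II. Its junction at chr12:43576497-43576734, with a span of 238 nt, went from rank 45 in the Sham library to rank 9 in the LPS library. It had 87 Sham reads, or 2283 CPM (1851 to 2815), and 466 LPS reads, or 8875 CPM (8108 to 9714), a 3.87-fold higher value. The other Med13l member, at chr12:43501060-43510832, had 56 and 123 reads, a log2 value of 0.67, and a further junction had 27 and 15.

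The small GTPase Arl15 (chr2:45801786-45813991) stood second in mean CPM, with 373 Sham reads, or 9787 CPM (8847 to 10826), and 948 LPS reads, or 18055 CPM (16951 to 19230). Fcho2, which bends membranes at clathrin-coated pits, was at rank 8 in both libraries (chr2:28968525-28969941), with 8055 and 9599 CPM. Gmfb, a member of the family of actin-depolymerizing factors, had 228 Sham reads, or 5982 CPM (5256 to 6808), and 569 LPS reads, or 10837 CPM (9987 to 11759), at chr15:23605382-23606634. Arl15, Gmfb and Nfix thus had intervals that lay apart, at folds of 1.84, 1.81 and 1.88. These are short of 2-fold, but with the shared ratios centered on 0 the log2 values are 1.34, 1.32 and 1.37, past it.

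Further abundant circRNAs differed by less than 2-fold. The transmembrane protein Tmeff1 (chr5:64346707-64358597) had 10495 CPM in Sham and 7885 CPM in LPS. The autophagy gene Uvrag (chr1:164046102-164064815) had 5982 and 5257 CPM. Plxnd1, a semaphorin receptor of blood vessels, stood at chr4:147869323-147869704. It had 5510 and 5219 CPM. The centrosomal Cep112 (chr10:96672236-96679543) had 5589 and 4742 CPM, and RGD1565775 (chr2:188055409-188056256) had 5956 and 4609 CPM. A further Gtf2i junction, at chr12:25431710-25435591, had 4880 and 5333 CPM. Of these 6, Tmeff1 and RGD1565775 had intervals that lay apart, both lower in LPS, at 1.33-fold and 1.29-fold. With the shared ratios centered on 0 their log2 values turn to 0.05 and 0.09.

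Members without a gene name were also among the most abundant. The table lists more than 1 name for some circRNAs, often small RNA families such as U6, 7SK and SNORA17, whose copies are spread over the genome, so these names do not fix a host. Of the 323 members, 269 had 1 gene name, 15 had 1 gene name beside small RNA families, 8 had several gene names and 31 had small RNA families only. The last group had a median span of 6120 nt, against 2816 nt for members with 1 gene name, and held 8.42% of the members' Sham reads and 8.79% of their LPS reads. The circRNA at chr4:6219912-6222632 had 119 Sham reads, or 3122 CPM (2610 to 3735), and 359 LPS reads, or 6837 CPM (6168 to 7579). The circRNA at chr10:62623758-62664462 went the other way, with 273 Sham reads, or 7163 CPM (6365 to 8061), and 133 LPS reads, or 2533 CPM (2138 to 3001). These are the last 2 of the 20 members with the highest mean CPM.

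The LPS to Sham ratios of the members were widely spread. The median log2 fold change was 0.43, the quartiles were -0.30 and 1.15, and the range went from -3.06 to 4.01. The SD across the 323 members was 1.13, against 0.35 from the counting of reads alone. In this set 97 members were at least 2-fold higher in LPS, beside 13.9% of all 1757 circRNAs with reads in both libraries, and 37 were at least 2-fold lower, beside 29.5%. Because the minimum on reads used the same values, nothing is read from the distance between these shares. The other 189 members were within 2-fold. Intervals of both libraries lay apart for 108 members that were higher in LPS and for 48 that were lower. Over all 1757 shared circRNAs this held for 167 (9.5%) and 165 (9.39%). Of the 97 higher members, 91 had intervals that lay apart, and so had all 37 of the lower members.

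The center of these ratios depends on the scale. Equal read numbers in both libraries correspond to a log2 fold change of -0.46, which is also the median over all 1757 shared circRNAs, and 848 of these had more LPS reads, while 257 of the 323 members did. If the midpoint of all shared ratios is set to 0, every log2 value moves up by 0.46, and the members then have a median of 0.89, with 149 higher and 19 lower by at least 2-fold. Taking the members' own reads as the total lowers the median to 0.23. The spread does not depend on the scale.

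The spread was also taken by number of reads. For the 181 members with 50 to 99 reads the SD of the log2 fold changes was 1.16, with 0.40 from counting. For the 89 members with at least 100 but under 200 reads it was 1.16, with 0.30 from counting. For the 53 members with 200 reads or more it was 0.97, with 0.17 from counting. The members were let in by their reads in either library, and the reads do not count molecules, so the excess over counting is not a measure of a difference between groups. With 1 library per group the part that separates any pair of libraries cannot be told apart from the part that separates the groups.

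The members farthest above their Sham value were often carried by very few Sham reads. Fanci, a gene of the repair of DNA crosslinks, had 3 Sham reads, or 78.7 CPM (26.8 to 231), and 77 LPS reads, or 1467 CPM (1174 to 1832), at chr1:141127539-141127840. The ratio of its CPM was 18.6, with an exact 95% counting interval from 6.14 to 92.3. Smtnl2, a relative of the smooth muscle protein smoothelin, also had 3 Sham reads and had 57 LPS reads (chr10:58961407-58965487), a ratio of 13.8 with an interval from 4.49 to 68.9. Both, like the rest of the 10 largest folds, reached the minimum through LPS reads alone and are named for their folds. The direction of all of these follows from the choice. Many more LPS reads belonged to Trappc6b, a subunit of the TRAPP tethering complex of the Golgi, at chr6:80149001-80150524. It had 21 Sham reads, or 551 CPM (360 to 842), and 284 LPS reads, or 5409 CPM (4817 to 6074), which is 9.61-fold higher and a move from rank 300 to rank 15.

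The other members of the 10 largest folds came from hosts of varied function. N4bp2l2 (chr12:632157-632694) had 9 Sham reads, or 236 CPM, and 108 LPS reads, or 2057 CPM. The ETS transcription factor Elf2 had 16 Sham reads, or 420 CPM, and 163 LPS reads, or 3104 CPM, at the shortest span of all members, chr2:140366057-140366222. Ppp1r12a, which directs a phosphatase to myosin, had 5 Sham and 54 LPS reads (chr7:51465047-51479896), or 131 and 1028 CPM. These 3 were 8.29-fold, 7.19-fold and 7.19-fold higher in LPS. The cAMP phosphodiesterase Pde8a (chr1:143107055-143109260) had 13 Sham and 110 LPS reads, or 341 and 2095 CPM. The cofilin phosphatase Ssh2 (chr10:62762623-62767418) had 7 and 54 reads, or 184 and 1028 CPM. The list of the 10 largest folds is completed by RGD1565616 (chr3:123299120-123304722), with 10 Sham and 90 LPS reads, and by the methyltransferase-like gene Mettl22 (chr10:7229937-7231476), with 13 and 95. Across the set, 24 members were at least 4-fold higher in LPS, beside 63 of all 1757 shared circRNAs.

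Fewer members were far lower in LPS, and 4 of the 10 lowest had no gene name. At least 4-fold lower were 5 members, beside 142 of the 1757 shared circRNAs, so over all of these the balance ran the other way. At 2-fold or more, the 31 members with small RNA families only had 14 higher and 6 lower, with a median log2 fold change of 0.87. Over all members 30.0% were higher and 11.5% lower, and over all 1757 shared circRNAs 13.9% and 29.5%. Nothing is read from these shares, since the members were chosen by the same values. The lowest ratio belonged to chr14:113271542-113314869, with small RNA families as names, at 63 Sham reads, or 1653 CPM (1292 to 2114), and 10 LPS reads, or 190 CPM (103 to 351). Cpeb3, which binds the cytoplasmic polyadenylation element of mRNAs, had 52 Sham reads, or 1364 CPM (1041 to 1789), and 14 LPS reads, or 267 CPM (159 to 448), at chr1:255764633-255774681. Prex2, an activator of the GTPase Rac, had 82 Sham reads, or 2152 CPM (1734 to 2670), and 23 LPS reads, or 438 CPM (292 to 657), at chr5:7777226-7780390. These values were 4.99-fold and 4.84-fold lower in LPS, in genes that reached the minimum through their Sham reads. The zinc finger gene Zfp609 (chr8:71336875-71337745) had 57 Sham and 16 LPS reads, or 1496 and 305 CPM. A circRNA under the name SNORA17 (chr13:113735261-113748416) had 62 and 17 reads.

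The next members in this direction were between 3.35-fold and 3.88-fold lower. Rabgef1, an activator of an endosomal Rab GTPase, had 77 Sham and 27 LPS reads, or 2020 and 514 CPM, at chr12:29985632-29988732. The RNA-binding protein Rbms2 had 85 and 30 reads, or 2230 and 571 CPM, at chr7:2558105-2558739. Brap, a ubiquitin ligase of Ras signalling, had 42 and 16 reads (chr12:40388299-40397763). Small RNA families were the names at chr10:92474821-92476192, with 45 and 18 reads, and at chr20:31723858-31736111, with 42 and 17 reads.

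At the other end, 62 members were within 1.2-fold in either direction. Among those with at least 100 reads, the 5 nearest to a log2 fold change of 0 were Tbcd, Gtf2i, Hdac4, Hars2 and Faxdc2. Tbcd, a cofactor of tubulin folding, had 123 Sham reads, or 3227 CPM (2706 to 3849), and 172 LPS reads, or 3276 CPM (2822 to 3802), at chr10:110680099-110690679. Hars2, a mitochondrial histidyl-tRNA synthetase, had 1574 CPM (1223 to 2026) and 1543 CPM (1242 to 1917) at chr18:29633808-29634585. Faxdc2, which has a fatty acid hydroxylase domain, had 1102 and 1143 CPM at chr10:43512009-43512284.

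Host lists were set beside each other without a test. Their members were chosen by the same values, many through LPS reads alone, so the order of their medians supports no comparison. Each list is a chosen set of genes and leaves out some hosts of its class, so its counts hold for the listed genes only. The list of kinases and phosphatases held 16 members, of which 10 were at least 2-fold higher and 2 at least 2-fold lower in LPS. Its median log2 fold change was 1.26. Over all 1757 shared circRNAs the same figures were 244 higher, 518 lower and a median of -0.46, and over the 323 members they were 97, 37 and 0.43. The stress kinase Taok1 (chr10:62574791-62575768) had 79 Sham reads, or 2073 CPM (1664 to 2582), and 273 LPS reads, or 5200 CPM (4619 to 5852). Flt1, a receptor for vascular endothelial growth factor (chr12:9061581-9062262), had 62 and 165 reads, or 1627 and 3143 CPM, short of 2-fold on this scale and past it with the shared ratios centered on 0 (log2 1.40). Mtmr3, a phosphoinositide phosphatase named beside small RNA families (chr14:84812462-84813991), had 35 and 129 reads, or 918 and 2457 CPM. Taok1 and Mtmr3 were both at least 2-fold higher.

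Hosts of the actin and membrane cytoskeleton and of vesicle traffic are given next. Of 10 members on the cytoskeleton list 4 were higher, 0 were lower, and the median was 0.76. Prex2, the Rac activator given above, lies outside the list and was lower (log2 -2.27). Arhgef12, a guanine nucleotide exchange factor, had 44 Sham reads, or 1154 CPM (860 to 1549), and 190 LPS reads, or 3619 CPM (3140 to 4170), at chr8:47337855-47339341. Dock4, an activator of Rac and Rap, leaned the other way, with 148 and 117 reads, or 3883 and 2228 CPM (chr6:60609626-60618957). Of 7 members on the trafficking list 3 were higher, 1 was lower, and the median was 0.84. Besides Trappc6b, the Golgi GTPase Rab6a (chr1:165646261-165654319) had 14 Sham and 74 LPS reads, or 367 and 1409 CPM, and Tbc1d8 (chr9:46104677-46105695), with the domain of Rab-inactivating proteins, had 16 and 76, or 420 and 1447 CPM. The lower member on the list was Dennd1b, an activator of Rab GTPases (chr13:56096834-56098861), with 106 and 70 reads, or 2781 and 1333 CPM. Of hosts outside the list, Rabgef1 was lower (log2 -1.96) and Clta was higher (1.09).

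Most members on the lists of nuclear and RNA-related hosts were within 2-fold, and some were past it in either direction. Of 12 members from the list of chromatin regulators 1 was higher, 1 was lower, and the median was 0.15. After Cdyl and Hdac4 the most reads on the list belonged to Crebbp and Asxl1. The acetyltransferase Crebbp (chr10:11626519-11627228) had 62 and 72 reads, or 1627 and 1371 CPM. Asxl1, a partner of a Polycomb deubiquitinase (chr3:148837814-148842440), was the higher one on the list. It had 20 Sham reads, or 525 CPM (340 to 810), and 111 LPS reads, or 2114 CPM (1756 to 2545). Among hosts outside the list, Setd7 (log2 -1.44), Ss18 (-1.16) and Gatad2a (-1.09) were lower and Brd8 (2.06) was higher. Hdac2 (-0.26), Ash2l (-0.57), Ehmt2 (0.39), Sirt7 (0.91) and Jmjd1c (0.93), also outside it, were within 2-fold. Of 11 members from the list of splicing and RNA-binding proteins 3 were higher, 2 were lower, and the median was 0.27. The lower ones on the list were Gigyf2 and Cpeb3. Outside the list, the RNA-binding protein Rbms2 was lower (log2 -1.95), and both members of the splicing factor gene Hnrnph1 were within 2-fold. The translation factor Eif4g3 (chr5:156396700-156416316) had 55 and 54 reads, or 1443 and 1028 CPM, and the deadenylase subunit Pan3 (chr12:9309987-9313769) had 59 and 45, or 1548 and 857 CPM. Zcchc11, which adds uridines to RNA ends, had 19 Sham and 62 LPS reads at chr5:128130304-128130833, or 499 and 1181 CPM. It was 2.33-fold higher in LPS.

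The list of ubiquitin ligases and deubiquitinases gave 7 members, with 1 higher, 2 lower and a median of -0.17. Of hosts outside the list, Brap was lower (log2 -1.83) and Rnf169 was higher (1.13). Ubr1, of the N-degron pathway, had 52 and 64 reads (chr3:112818732-112820089), and Nedd4, a ligase of membrane proteins, had 25 and 38 (chr8:79330088-79347376). In the matrix and adhesion list both members came from elastin, the protein of elastic fibers in the alveolar wall. Of these 0 were past 2-fold, with a median of -0.49. Npnt, a matrix protein given below, lies outside the list and was higher (log2 1.86). The Eln junction at chr12:25007056-25007716 had 101 Sham reads, or 2650 CPM (2182 to 3219), and 86 LPS reads, or 1638 CPM (1327 to 2022). That at chr12:25001615-25002399 had 74 and 84 reads, or 1942 and 1600 CPM.

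No member came from the list of innate immune and inflammatory signalling genes. Of its 67 genes 14 had a circRNA anywhere in the table, in 22 circRNAs with 46 Sham and 179 LPS reads together. With 6.82% of all circRNAs being members, 22 are too few to read anything from this. Genes often described as circRNA hosts in mammals gave 27 members of 152 circRNAs, from 16 genes, with 7 higher, 4 lower and a median of 0.15. The signs of 3 medians depend on the scale. When the midpoint of all shared ratios was set to 0, the ubiquitin list moved to 0.30. The lower members of the ubiquitin, chromatin and trafficking lists, Dennd1b among them, were then no longer past 2-fold. The counts of these lists became 2 higher and 0 lower, 3 and 0, and 4 and 0. Brap and Rabgef1, which lie outside these lists, stayed past 2-fold at -1.37 and -1.49. With the members' reads as the total the chromatin list moved to -0.05 and the list of often described hosts to -0.05.

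The study designed primers for circRNAs of 8 host genes, and 4 of these genes, Phkb, Tbc1d8, Smtnl2 and Arl1, had a member. The junction of Phkb, the beta subunit of phosphorylase kinase, at chr19:22172781-22179584 had 11 Sham reads, or 289 CPM (161 to 517), and 58 LPS reads, or 1105 CPM (855 to 1428). It stood at rank 684 in the Sham library and at rank 158 in the LPS library. The junction of the Golgi GTPase Arl1 at chr7:29286904-29288495 had 28 and 42 reads, or 735 CPM (508 to 1062) and 800 CPM (592 to 1081). Phkb, Tbc1d8 and Smtnl2 were thus past 2-fold and this Arl1 junction was not. The paper picked its candidates partly for high folds in its own lung sequencing. Phkb, Tbc1d8 and Smtnl2 also reached the read minimum through LPS reads alone. Their direction thus follows from the choice and is no separate support. The other Arl1 junction in the table had 4 and 42 reads, a log2 value of 2.78, and did not reach the minimum. Herc1, Tlk2, Susd1 and Tcaim had circRNAs in the table, but none reached 50 reads with both libraries above the fill-in. The most reads of any of them were 43, for Tlk2.

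A gene name could be given to 284 members, from 252 host genes. Of these hosts 226 had 1 member, 22 had 2, and Gtf2i, Uvrag and Arhgap10 had 3 each. Crim1 had 5. Junctions of the same gene share its transcription and, where they have a common end, also a splice site, so they are not separate observations of a gene. Among all members 39 shared an end with another member, in 18 groups, of which 14 had a common end coordinate and 4 a common start coordinate. Within these groups the log2 fold changes differed by a median of 1.31, and by 1 or more in 11 of the 18. In 9 groups all log2 values had the same sign and in 9 they did not.

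Crim1, a transmembrane regulator of BMP signalling, showed this spread in 1 gene. Of its members, 4 end at 907083 on chromosome 6. The one that starts at 904491 had 104 Sham reads, or 2729 CPM (2253 to 3305), and 204 LPS reads, or 3885 CPM (3388 to 4455). The one that starts at 894593 had 15 and 97 reads, or 394 CPM (239 to 649) and 1847 CPM (1515 to 2253). The longest of the 4, from 871525, had 33 and 47 reads, or 866 and 895 CPM. The shortest, from 906886, had 12 and 42 reads, or 315 and 800 CPM. The same end coordinate thus went with log2 fold changes from 0.04 to 2.19. The fifth member, at chr6:828602-872927, had 27 and 29 reads, or 708 and 552 CPM.

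In Uvrag and Arhgap10 the junctions kept closer together. The 3 Uvrag members end at 164064815 on chromosome 1. Beside the most abundant, that from 164055294 had 44 reads in each library, or 1154 and 838 CPM, and that from 164025518 had 34 and 32, or 892 and 609 CPM. Their log2 fold changes lay between -0.55 and -0.19. Arhgap10, a GTPase-activating protein, had members at chr19:34270069-34298610 with 68 and 104 reads, at chr19:34207716-34207946 with 43 and 101, and at chr19:34249087-34272145 with 34 and 50. The log2 values of the 3 were 0.15, 0.76 and 0.09.

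Wide contrasts within a shared end also occurred in genes with a pair of members. The long Gigyf2 circRNA shares its start with a member that ends at 94464799. This short form had 18 Sham reads, or 472 CPM (299 to 746), and 50 LPS reads, or 952 CPM (722 to 1255), so its log2 fold change was 0.99, beside -1.17 for the long form. In N4bp2l2 the short member named above shares its end with chr12:628708-632694, which had 69 Sham reads, or 1810 CPM (1431 to 2290), and 55 LPS reads, or 1048 CPM (805 to 1363). The log2 values of the pair were 3.05 and -0.79, the widest gap of the 18 groups. In Strn3, a striatin scaffold gene, the member from 72429638 to 72430205 on chromosome 6 had 17 and 46 reads, and the longer member from 72418120 had 43 and 20. In Mfng, which modifies Notch receptors with sugars, the member from 119987740 to 119990759 on chromosome 7 had 20 and 62 reads, and that ending at 119990307 had 30 and 22. In all 4 genes the members of a pair fell on different sides of equal CPM.

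Junctions whose ends lie a few bases apart could also differ. The Gtf2i circRNA that starts at 25431687, under a list of names with small RNA families, ends at the same base as the member from 25431710. It had 23 Sham reads, or 603 CPM (402 to 905), and 138 LPS reads, or 2628 CPM (2225 to 3104), while its neighbor had nearly equal CPM. In Hnrnph1, a splicing factor gene, the members from 35876034 and from 35876013 to 35876397 on chromosome 10 had 39 and 59 reads and 42 and 35 reads. In other genes the pair moved alike. The 2 Zcchc11 members that start at 128130304 on chromosome 5 had log2 values of 1.39 and 1.22, those of Ttc3 had 0.23 and 0.19, and those of Cdkal1 had -0.41 and -0.35. Elf2 had 2 members with a common start, of which the longer, chr2:140366057-140387503, had 61 and 175 reads, or 1601 and 3333 CPM.

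Most host genes gave further circRNAs that did not reach the minimum. For 184 of the 252 hosts the table lists 554 other junctions, with 2986 Sham and 3094 LPS reads together, against 17828 and 27953 reads in the members of the 252 hosts. Members were chosen by their reads, so the choice favors their larger part of these reads, and nothing is read from it about the hosts. In single hosts the other junctions could hold more reads than the member. The other junctions of 93 hosts had at least 20 reads together. Their median log2 fold change was -0.41, beside 0.43 for the members of the same hosts. The Spearman correlation between members and other junctions across these 93 hosts was 0.19. It is a description only, since members were chosen on their reads and the remaining junctions are thinly counted. Of the 27 hosts whose members together were at least 2-fold higher in LPS, 5 had other junctions at least 2-fold higher, 5 at least 2-fold lower and 17 in between. Of the 7 hosts with lower members, the numbers were 1 higher, 2 lower and 4 in between. Of the 59 hosts with members under 2-fold, they were 10 higher, 18 lower and 31 in between.

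Examples go both ways. The 10 other Crim1 junctions had 72 Sham and 63 LPS reads together, beside 191 and 419 in the members. The 5 other Phkb junctions had 25 reads in each library. The 14 other Prex2 junctions had 99 and 39 reads and thus shared the direction of the member. For Eln, the 19 other junctions had 156 Sham and 36 LPS reads, a log2 value of -2.56, well below the -0.69 and -0.28 of the abundant members. The 6 other Gigyf2 junctions had 77 and 62 reads, a log2 value of -0.77.

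The members spanned shorter stretches of the genome than the other shared circRNAs. The median span was 3118 nt (quartiles 960 and 9297), against 4424 nt for the 1434 with fewer reads and 4394 nt for all 4734. At most 500 nt were spanned by 47 members, or 14.6%, against 9.41% of the other shared circRNAs and 12.5% of all 4734. At least 25000 nt were spanned by 19 members, or 5.88%, against 10.8% and 11.1%. Span was not used to choose the members. No test was made of these shares, because circRNAs of a gene are not independent and the spliced length is not in the table. Among the shortest members were Elf2 with 166 nt, Aasdh with 193 nt, a Crim1 member with 198 nt and Gtf3c6 with 208 nt. Aasdh (chr14:33631872-33632064) had 40 Sham and 19 LPS reads, or 1050 and 362 CPM, and Gtf3c6, a subunit of a factor for RNA polymerase III (chr20:45353005-45353212), had 48 and 30, or 1259 and 571 CPM.

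The longest members were mostly those without a clear gene name. The longest, chr10:94083626-94187819, spanned 104194 nt and had 128 Sham reads, or 3359 CPM (2826 to 3992), and 93 LPS reads, or 1771 CPM (1446 to 2169). The next, chr20:5347661-5414567, had 207 and 101 reads, or 5431 and 1924 CPM. Both bear small RNA families as names. Nckap5 (chr13:42745929-42807560) spanned 61632 nt and had 37 and 73 reads. A member of 54627 nt at chr6:96487054-96541680, with Prkch and Eif3h among its names, had 22 and 81 reads, and one of 54352 nt at chr17:38026513-38080864 had 67 and 69.

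Ratios of the members are given by class of span without a test, since the members were chosen by the same reads. The median log2 fold change was 0.39 for members of at most 500 nt, 0.72 for longer ones up to 2000 nt, 0.41 for those above that and up to 10000 nt, and 0.13 for those over 10000 nt. For the 19 members of at least 25000 nt it was -0.41, with 1 higher and 3 lower by at least 2-fold, beside -0.46, 9 higher and 53 lower in the 155 other shared circRNAs of that span. Among the 1434 other shared circRNAs the medians of the first 4 classes were -0.46, -0.46, -0.46 and -0.66. Members over 10000 nt held 35.8% of the members' Sham reads and 26.5% of their LPS reads, a share that includes Gigyf2.

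Host genes that mark lung cell types gave 5 members. They are named here as hosts of circRNAs, and in tissue a smaller number of cells of a type and less RNA per cell cannot be told apart. Of 7 markers of alveolar type I epithelium 2 had any circRNA in the table, with 56 Sham and 112 LPS reads. Rtkn2 was the most abundant of them and had a member at chr20:21951779-21959614, with 13 Sham reads, or 341 CPM (199.4 to 583.6), and 91 LPS reads, or 1733 CPM (1412 to 2127). Its 5 other junctions went the other way, with 40 and 21 reads. Of 12 endothelial markers 6 had circRNAs, with 178 and 234 reads, and Flt1 was the most abundant. Of the others, Tek had 18 and 2, Emcn 21 and 6, Calcrl 14 and 4, Ptprb 0 and 4, and all Vwf junctions together 58 and 53. Both endothelial members, Flt1 and Vwf, were within 2-fold in CPM, Flt1 with the dependence on scale given above. The member of Vwf, the clotting factor of endothelium (chr4:158103902-158108668), had 20 and 39 reads, and its 3 other junctions had 38 and 14. Of 11 markers of fibroblasts and smooth muscle 4 had circRNAs, with 95 and 65 reads, among them Col3a1 with 70 and 2 reads and no member. The matrix protein Npnt had a member at chr2:238023879-238038227 with 11 and 57 reads, or 289 and 1086 CPM. Of 12 lymphocyte markers 2 had circRNAs, with 54 and 89 reads, nearly all from Ikzf1, whose member at chr14:91797457-91804795 had 46 and 79 reads.

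The other marker lists had no member. Alveolar type II markers had circRNAs from 3 of 9 genes, with 7 Sham and 3 LPS reads, and airway markers from 0 of 10. Macrophage markers had them from 4 of 11, with 2 and 15 reads, and muscle markers from 1 of 10, with 4 and 0. Of 9 neutrophil markers only Csf3r had a circRNA, with no Sham and 25 LPS reads. Defining markers such as Ager, Sftpb, Scgb1a1, Pecam1, Cd68, S100a8 and Ptprc gave no circRNA in the table, which says nothing of their mRNA. The part of changing cell types in the ratios of the members was not tested.

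Members lay on 21 chromosomes, the autosomes and X. Chromosome 1 had the most, 34 of its 512 circRNAs, followed by chromosome 10 with 27 and chromosome 2 with 25. Chromosome 12 had the highest share, 19 of 181 circRNAs or 10.5%, and X the lowest of those with a member, 2 of 75 or 2.67%. Chromosome 9, which carries Gigyf2, had the most Sham reads, 3054 in 14 members, and chromosome 2 the most LPS reads, 4004.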

How the data were processed

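The authors deposited a table with 1 value per circRNA and library, headed TPM and read here as CPM of junction reads. The submitters' notes name CASAVA 1.8, BWA and rn6.

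The members and lists were chosen with earlier results of these data known. Read numbers were values divided by the step of each column and were used for depth, intervals and the read minimum, and no count test was run. Named members were the 20 of highest mean CPM, the 10 largest log2 fold changes in each direction, the 5 nearest 0 with at least 100 reads, hosts in the study's primer table, the 5 longest and 5 shortest spans, hosts with at least 3 members, those at the read minimum, and the 4 with most reads of each of 9 gene lists. Other hosts, named for shared ends, for cell type markers or as outside a gene list, were chosen after their values were seen. A few members under this rule are not shown. Of 252 host names 246 were found among GRCr8 symbols and synonyms. The lists were matrix and adhesion, innate immune and inflammatory signalling, ubiquitin ligases and deubiquitinases, chromatin regulators, splicing and RNA-binding proteins, trafficking, kinases and phosphatases, actin and membrane cytoskeleton, and often described circRNA hosts. Markers were of alveolar type I, alveolar type II, airway, endothelial, fibroblast and smooth muscle, macrophage, neutrophil, lymphocyte and muscle cells. Intervals are 95% Wilson intervals, and differences are 2-fold on the log2 scale with 0.5 reads added. Steps were tested on simulated data. Python 3.11.15, numpy 2.4.6, pandas 2.3.3 and scipy 1.17.1 were used.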

Additional observations from a re-analysis of the deposited data

How the results depend on the processing

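With a single library on each side, neither pairing nor leaving out a library was possible. In the main setting 97 of 323 members were at least 2-fold higher and 37 at least 2-fold lower, with a median log2 fold change of 0.43, 51.9% of Sham reads and 59.5% of LPS reads. Scaling by the median of the shared ratios gave 149, 19 and 0.89, and with the members' reads as the total they were 76, 47 and 0.23. Both follow from the shift each scale makes. At 1.5-fold 146 were higher and 59 lower, and at 4-fold 24 and 5, by construction. With at least 30 reads there were 551 members, 151 higher and 89 lower, a median of 0.24, and 61.8% and 68.9% of the reads. With at least 100 reads there were 142 members, 45 higher and 13 lower, and 39.8% and 44.6% of the reads. With at least 10 reads in each library the LPS share was 58.0%, and with 1 host gene name the shares were 45.4% and 51.1%, since fewer circRNAs enter. No reads added, 1 read added and the total without Gigyf2 kept all 4 values of the ratios close, and so did as many circRNAs taken by highest mean CPM, an alternative chosen after seeing the data, which shared 318 of 323 members. The SD stayed between 1.06 and 1.26 and the median span between 2767 and 3382 nt. Of the values of named members under other scales and added reads, 384 stayed within the 95% range of their counting error, 36 did not. These 36 came from the median of ratios and from the members' reads as the total. With the median of ratios, every member named for its high mean CPM left its range. The pooled count therefore does not show that the best counted values are stable. Under the median of ratios 19 of the 37 lower members stayed past 2-fold, Gigyf2 moved to -0.71 and fell short of it, and 42 members changed sign, 0 of them past 2-fold in the main setting.

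Depth limits single values: 13 members had fewer than 10 Sham reads, and 181 had fewer than 100 reads over both libraries.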
